A study of Mus musculus with 5 samples.

Results

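The AP-1 and immediate early genes described here are 10 genes, Fos, Fosb, Jun, Junb, Jund, Egr1, Ier2, Klf2, Klf6 and Zfp36, each found by its symbol among the 53700 genes of the deposited count table. Each symbol had 1 row, so all 10 were found. The cells were MutuDC, an established mouse dendritic cell line. The libraries came from cells treated with Fanchinoline for 2, 6, 12 and 24 h and from a vehicle control, which the table names as 0 h and the series' design text calls untreated. The sources used here name no genotype change or dose, and every group is the same cell line. The table holds 1 library per group, although the design text speaks of triplicates, so the differences below have no replicate check and carry no p-value.

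AP-1 is a dimer of a Jun protein with a Fos protein or with a second Jun protein, and binds short DNA elements through its basic leucine zipper. Immediate early genes are transcribed from factors already in the cell, without new protein synthesis, when MAP kinases act on serum response factor (SRF), its ETS partners or CREB, and their mRNAs are short-lived. In dendritic cells, pathogen and cytokine receptors act on these genes, and the AP-1 related protein Batf3 is needed for the cDC1 lineage that MutuDC cells model.

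Total counts lay between 33568526 and 42854511 per library. Levels are TMM-scaled CPM, the count of a gene in proportion to the scaled total of its library. Log2 ratios carry 95% exact intervals that treat 1 count as 1 read; PCR copies are not separate molecules without identifiers, so these intervals hold counting error and no more. A gene was called when its log2 ratio reached 1 in either direction with an interval clear of 0. Calls were made for the 8846 genes that reached 10 CPM in 1 or more libraries. This size rule compares libraries, not conditions. All 15 cDC1 markers examined exceeded 1 CPM in at least 1 library, with 278 to 327 CPM for Xcr1, 203 to 251 CPM for Clec9a and 43.4 to 71.7 CPM for Batf3. Of the 14 compared, 1 was called lower at 24 h over vehicle, beside 1.23% of all compared genes. With ratios adjusted for exon length and GC content, the number was also 1, beside 0.985%. The T cell genes Cd3d, Cd3e and Cd3g and the neutrophil gene S100a8 had 0 counts in all libraries. Of the 9 macrophage and neutrophil genes examined, S100a8 among them, 2 exceeded 1 CPM, and their summed level was 214 to 273 CPM. Of 8 fibroblast, epithelial and erythroid genes 1 exceeded 1 CPM, with a sum of 7.34 to 10.4 CPM. Of 6 T and NK cell genes and 5 B and plasmacytoid cell genes, 0 exceeded 1 CPM. The share of mitochondrially encoded genes was 1.47% to 1.78% in treated libraries, against 2.58% in vehicle, and summed levels of 5 nuclear non-coding RNAs were 297 CPM in vehicle and 165, 126, 103 and 94.3 CPM at 2, 6, 12 and 24 h. The part of these shifts in the results below was not tested. Fewer cells with a transcript and less transcript per cell cannot be told apart in such bulk libraries.

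Junb, Jund and Ier2 were near or above vehicle at 2 h and below it at 12 and 24 h, whereas Fos was above vehicle in all 4 treated libraries and highest at 24 h. At 24 h the log2 ratios to vehicle were -0.78, -1.12 and -0.65 for Junb, Jund and Ier2 and 0.83 for Fos. Adjusted for exon length and GC content they were -0.40, -0.46, -0.23 and 1.04, and with this adjustment 0 members were called lower. The promoters of 5 members, Fos, Fosb, Junb, Jun and Klf6, are shown. Fos, Fosb and Junb hold TGACG, a short and common word that is part of the cyclic AMP response element. Jun and Klf6 hold TGACATCA, a variant of that element. Klf2 also holds TGACG, but its window is not shown. RefSeq (GRCm38.p6) windows matched 8 of the 10 members by symbol, and that of Jund, at chr8:70697489-70697738, ends upstream of the Jund start used for the other values here. The 250 bases before each start site are printed 5′ to 3′ on the gene's strand, at chr12:85473640-85473889 (plus strand) for Fos, chr7:19310046-19310295 (minus) for Fosb, chr8:84978749-84978998 (minus) for Junb, chr4:95052223-95052472 (minus) for Jun and chr13:5861239-5861488 (plus) for Klf6. Capitals mark TGACG, TGACATCA and TATAAA.
Fos: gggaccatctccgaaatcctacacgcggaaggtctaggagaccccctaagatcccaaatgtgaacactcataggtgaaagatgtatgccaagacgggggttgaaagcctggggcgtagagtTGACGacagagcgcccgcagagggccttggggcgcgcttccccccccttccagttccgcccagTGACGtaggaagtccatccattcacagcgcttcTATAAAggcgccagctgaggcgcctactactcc
Fosb: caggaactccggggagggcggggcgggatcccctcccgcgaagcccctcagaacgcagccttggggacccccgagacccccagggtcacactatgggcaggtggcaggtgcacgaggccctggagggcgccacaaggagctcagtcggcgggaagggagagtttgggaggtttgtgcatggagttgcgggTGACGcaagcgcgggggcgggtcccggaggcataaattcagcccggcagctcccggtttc
Junb: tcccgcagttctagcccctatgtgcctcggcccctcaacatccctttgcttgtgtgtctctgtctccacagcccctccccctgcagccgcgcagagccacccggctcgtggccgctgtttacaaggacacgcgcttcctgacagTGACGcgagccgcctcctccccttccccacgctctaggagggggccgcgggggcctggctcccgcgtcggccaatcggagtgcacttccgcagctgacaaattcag
Jun: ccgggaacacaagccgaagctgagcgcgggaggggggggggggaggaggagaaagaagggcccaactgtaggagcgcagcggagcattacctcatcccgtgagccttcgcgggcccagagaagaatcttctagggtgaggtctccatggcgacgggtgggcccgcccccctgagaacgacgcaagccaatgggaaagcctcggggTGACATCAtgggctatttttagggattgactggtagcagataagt
Klf6: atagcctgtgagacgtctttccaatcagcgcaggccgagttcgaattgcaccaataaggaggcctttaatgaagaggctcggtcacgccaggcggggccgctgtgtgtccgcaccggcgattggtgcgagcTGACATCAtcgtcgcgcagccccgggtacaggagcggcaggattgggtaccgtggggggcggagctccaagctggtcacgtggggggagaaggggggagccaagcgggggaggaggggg

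In the Fos promoter, TGACG, the core of the cyclic AMP response element, began 129 and 66 bases before the start site, and a TATAAA began 33 bases before it. Fosb held TGACG 60 bases and Junb 106 bases before the start site, and Klf2, whose window is not shown, 241 bases before it. Jun and Klf6 both held TGACATCA, which differs from the full element TGACGTCA at its centre and is the known Jun and ATF site of the Jun promoter, 45 and 119 bases before the start. Both strands were searched for TGACG, for TATAAA, for the full and variant elements, for the AP-1 site TGACTCA and for the CArG box of SRF. The core TGACG lies within the full element. Among 32851 RefSeq windows of the same length, 17.8% held TGACG, 2.93% TGACATCA and 12.4% TATAAA, so TGACG is a common word. The full element (1.55% of windows) and the AP-1 site (4.46%) were in none of the 8 windows, and the CArG box (1.47%) was in that of Zfp36. The Zfp36 window, chr7:28379229-28379478, lies within the Zfp36 gene as used for the other values here (28376784 to 28380253). Bases outside the 250 of each window were not searched. These matches are descriptions of letters in a short window and do not show binding.

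Per kilobase of exon, Jun, Junb and Jund each had more RNA than Fos, Fosb, Fosl1 and Fosl2 in every library. Junb encodes a Jun protein that is often a weaker activator than Jun. It had 131.5 CPM in vehicle, 167 CPM at 2 h, 149.6 CPM at 6 h, 94.6 CPM at 12 h and 76.8 CPM at 24 h. It was thus highest at 2 h, and both late libraries were below vehicle. Its log2 ratio to vehicle was 0.35 at 2 h (interval 0.29 to 0.40), 0.19 at 6 h (0.13 to 0.24), -0.47 at 12 h (-0.54 to -0.41) and -0.78 at 24 h (-0.84 to -0.71). Between 24 h and 2 h the log2 ratio was -1.12 (-1.18 to -1.06), which met the size rule.

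Jund encodes the Jun protein that is usually present in resting cells. It had 96.7 CPM in vehicle, 93.5 CPM at 2 h, 104 CPM at 6 h, 53.9 CPM at 12 h and 44.6 CPM at 24 h. The first 3 libraries lay close together and the last 2 far below them. At 24 h its log2 ratio to vehicle was -1.12 (-1.20 to -1.03), the only call among the members against vehicle, and over 2 h it was -1.07 (-1.15 to -0.99), also a call. Adjusted for length and GC content these values were -0.46 and -0.42 and neither was a call, and with total-count scaling the value over 2 h was -0.989, short of the limit. The step at 12 h over 6 h was -0.95 (-1.03 to -0.88). Only 0.283% of the 8846 genes had a lower ratio at that step.

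Jun, the founding subunit and the one whose transactivation domain is phosphorylated by the JNK kinases, moved less. It had 89.2 CPM in vehicle, 99.5 CPM at both 2 and 6 h, 88.4 CPM at 12 h and 73.3 CPM at 24 h. Its log2 ratio to vehicle was 0.16 at 2 h (0.09 to 0.23) and -0.28 at 24 h (-0.36 to -0.21), and at 12 h it was -0.01, with a sign that turned under the other 2 scalings (0.00 with DESeq2 size factors and 0.01 with total counts). Per kilobase of exon, Jun made up 27.7% of the RNA of the Jun genes Jun, Junb and Jund at 24 h, against 19.5% in vehicle, with no adjustment for GC content. Summed over the 3 genes, the levels of the 5 libraries, with vehicle first and then by time, were 143, 160, 159, 101 and 83.1 CPM per kilobase.

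**Figure D1:**
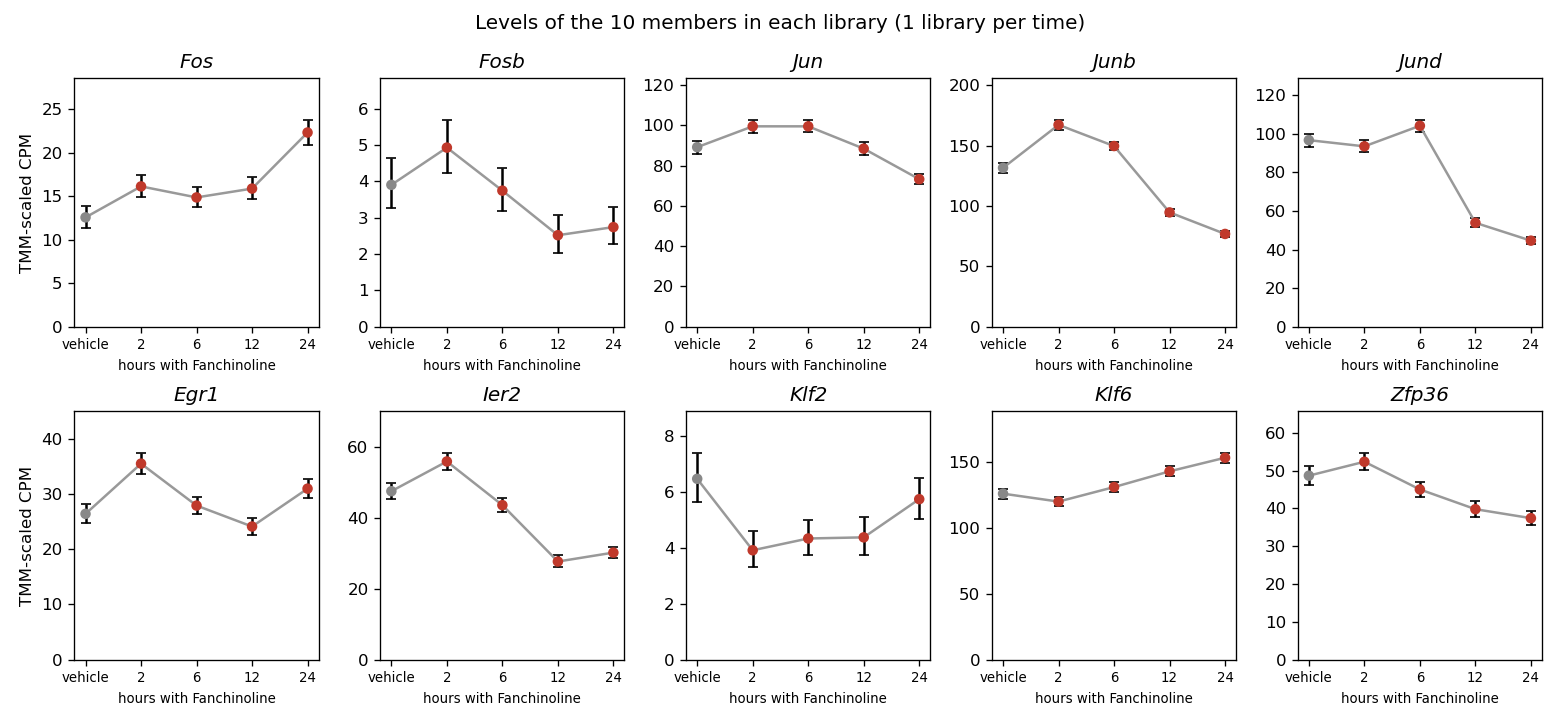
TMM-scaled CPM (vertical axis, from 0) of each of the 10 members in the vehicle library (grey) and after 2, 6, 12 and 24 h with Fanchinoline (red); bars are 95% exact Poisson intervals of the count. Junb, Jund and Ier2 drop between 6 and 12 h, while Fos reaches 22.3 CPM at 24 h, above the 12.6 CPM of vehicle.

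The Fos subunits, which bind DNA only as partners of another zipper protein, went different ways. Fos had 12.6 CPM in vehicle, 16.1 CPM at 2 h, 14.9 CPM at 6 h, 15.9 CPM at 12 h and 22.3 CPM at 24 h, so every treated library was above vehicle. Its log2 ratio to vehicle was 0.36 at 2 h (0.18 to 0.54), 0.24 at 6 h (0.06 to 0.42), 0.34 at 12 h (0.15 to 0.52) and 0.83 at 24 h (0.66 to 0.999). The last value was under the limit of the size rule. The step 24 h over 12 h, at 0.49 (0.34 to 0.64), was larger than that of 99.0% of the 8846 genes.

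Fosb, which encodes a close relative of Fos, was scarce. It had 128 counts (3.90 CPM) in vehicle, 184 counts (4.93 CPM) at 2 h, 159 counts (3.74 CPM) at 6 h, 95 counts (2.52 CPM) at 12 h and 117 counts (2.74 CPM) at 24 h. It was below 10 CPM in every library and so could not be called. Fosb had a log2 ratio to vehicle of -0.62 at 12 h (-1.03 to -0.24) and -0.50 at 24 h (-0.88 to -0.14). Per kilobase, Fos made up 85.3% of the RNA of Fos, Fosb, Fosl1 and Fosl2 at 24 h, against 80.8% in vehicle, and Fosb made up 3.94%, against 9.45% in vehicle.

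**Figure D2:**
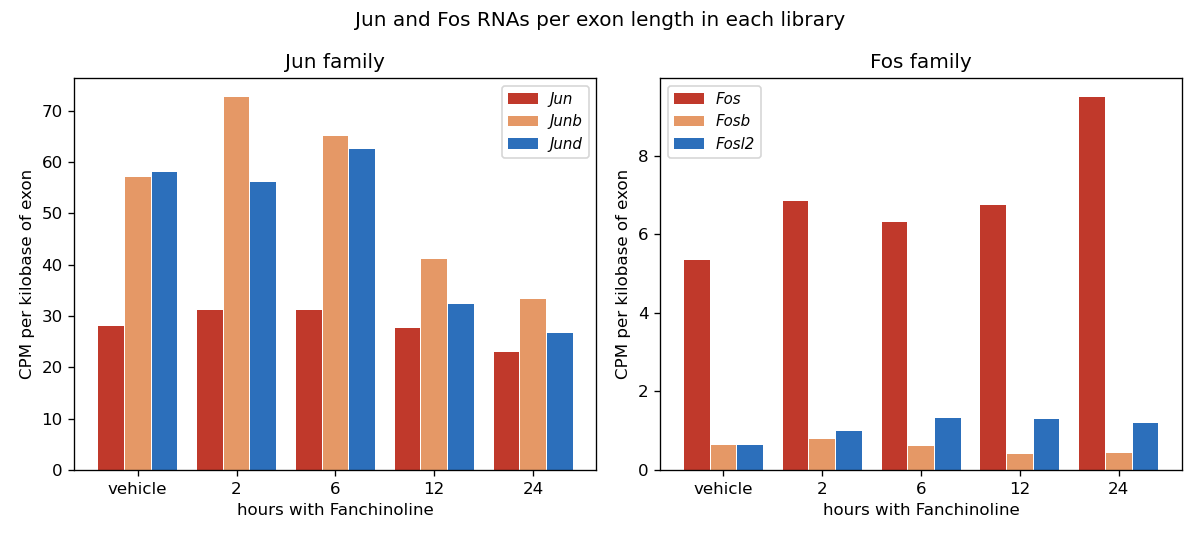
CPM per kilobase of exon (vertical axes, from 0) of the Jun genes (left) and of Fos, Fosb and Fosl2 (right) in vehicle and after 2, 6, 12 and 24 h with Fanchinoline. Junb and Jund stand at 33.4 and 26.7 CPM per kilobase at 24 h, near Jun at 23.0, while Fos is the main Fos gene in every library.

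Among the other immediate early genes, Ier2, which encodes a small nuclear protein induced by growth factors, was lower late. It had 47.5 CPM in vehicle, 55.9 CPM at 2 h, 43.6 CPM at 6 h, 27.7 CPM at 12 h and 30.2 CPM at 24 h. The last 2 libraries were the lowest. Against vehicle the log2 ratio was 0.23 at 2 h (0.14 to 0.33), -0.12 at 6 h (-0.22 to -0.03; 0.01 adjusted for length and GC content), -0.78 at 12 h (-0.89 to -0.67) and -0.65 at 24 h (-0.76 to -0.55), and over 2 h it was -0.89 at 24 h (-0.99 to -0.79). Unlike Junb, Ier2 was below vehicle at 6 h and higher at 24 h than at 12 h (0.13, 0.01 to 0.24).

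Egr1, a zinc finger factor and a classical SRF target on chromosome 18, was highest at 2 h. It had 26.4 CPM in vehicle, 35.5 CPM at 2 h, 27.9 CPM at 6 h, 24.1 CPM at 12 h and 30.9 CPM at 24 h. Relative to vehicle the log2 ratio was 0.43 at 2 h (0.30 to 0.55), 0.08 at 6 h (-0.05 to 0.21), -0.13 at 12 h (-0.27 to 0.00) and 0.23 at 24 h (0.11 to 0.36). The levels thus went up, back and up again, without a call.

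Zfp36 encodes tristetraprolin, which binds AU-rich elements in mRNAs and leads to their decay. It had 48.6 CPM in vehicle, 52.3 CPM at 2 h, 45.0 CPM at 6 h, 39.8 CPM at 12 h and 37.4 CPM at 24 h, and its log2 ratio to vehicle at 24 h was -0.38 (-0.48 to -0.28). From 2 h on each later library was lower than the one before. The interval of the last step, 24 h over 12 h, included 0 (-0.09, -0.19 to 0.01).

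The 2 Krüppel-like factors moved unlike Junb. Klf6, a broadly expressed zinc finger activator, had 126 CPM in vehicle, 119.9 CPM at 2 h, 131 CPM at 6 h, 143 CPM at 12 h and 153 CPM at 24 h, with a log2 ratio to vehicle of 0.28 at 24 h (0.23 to 0.34). Klf2, known for holding lymphocytes and endothelium in a quiet state, had 212 counts (6.47 CPM) in vehicle, 146 (3.91 CPM) at 2 h, 184 (4.33 CPM) at 6 h, 165 (4.37 CPM) at 12 h and 245 (5.74 CPM) at 24 h. Klf2 was lowest at 2 h, with a log2 ratio to vehicle of -0.72 (-1.04 to -0.41), and at 24 h its interval included 0 (-0.17, -0.44 to 0.10) and its adjusted value was 0.23. Klf2 was higher at 24 h than at 2 h (0.55, 0.25 to 0.86). Like Fosb, Klf2 was below 10 CPM in every library.

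Of the 10 members, 8 had at least 10 CPM, each of them in every library, and could be called. At 2, 6, 12 and 24 h over vehicle 0, 0, 0 and 1 of these were called, Jund lower at 24 h. In the same comparisons 1.33%, 1.94%, 3.07% and 4.09% of the 8846 genes were called in either direction. Split by direction, 0.904%, 1.57%, 2.33% and 2.86% were called higher and 0.430%, 0.373%, 0.746% and 1.23% lower. The 4 comparisons share the vehicle library. Between treated libraries, 2 members, Junb and Jund, were called lower at 24 h over 2 h, where 0.690% of genes were called lower. In the steps 6 h over 2 h, 12 h over 6 h and 24 h over 12 h, 0 members were called, as were 0.328%, 0.305% and 0.147% of genes. With a limit of 0.5 on the log2 ratio, Junb, Jund and Ier2 were called lower at 12 h over 6 h, where 1.49% of genes were, and at 24 h over 2 h, where 6.00% were. Jund and Ier2 were lower by this limit at 12 h over vehicle (8.52% of genes). At 24 h over vehicle Junb, Jund and Ier2 were called lower (12.2% of genes) and Fos higher (15.3% of genes).

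The members differed in how far their levels ranged. The largest CPM was 2.34 times the smallest for Jund, 2.18 times for Junb, 2.02 times for Ier2, 1.96 times for Fosb, 1.78 times for Fos and 1.65 times for Klf2, and under 1.5 times for 4 members, Jun, Klf6, Zfp36 and Egr1. Over all 10 members the median log2 ratios to vehicle at 2, 6, 12 and 24 h were 0.20, 0.07, -0.38 and -0.33, beside 0.03, 0.04, 0.02 and -0.00 over the 8846 genes. The interval lay above 0 for 7 members and below it for 2 at 2 h, and above it for 3 and below it for 6 at 24 h. The matching shares over the 8846 genes are not given here. These counts therefore describe the members alone and do not set them apart from other genes.

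**Figure D3:**
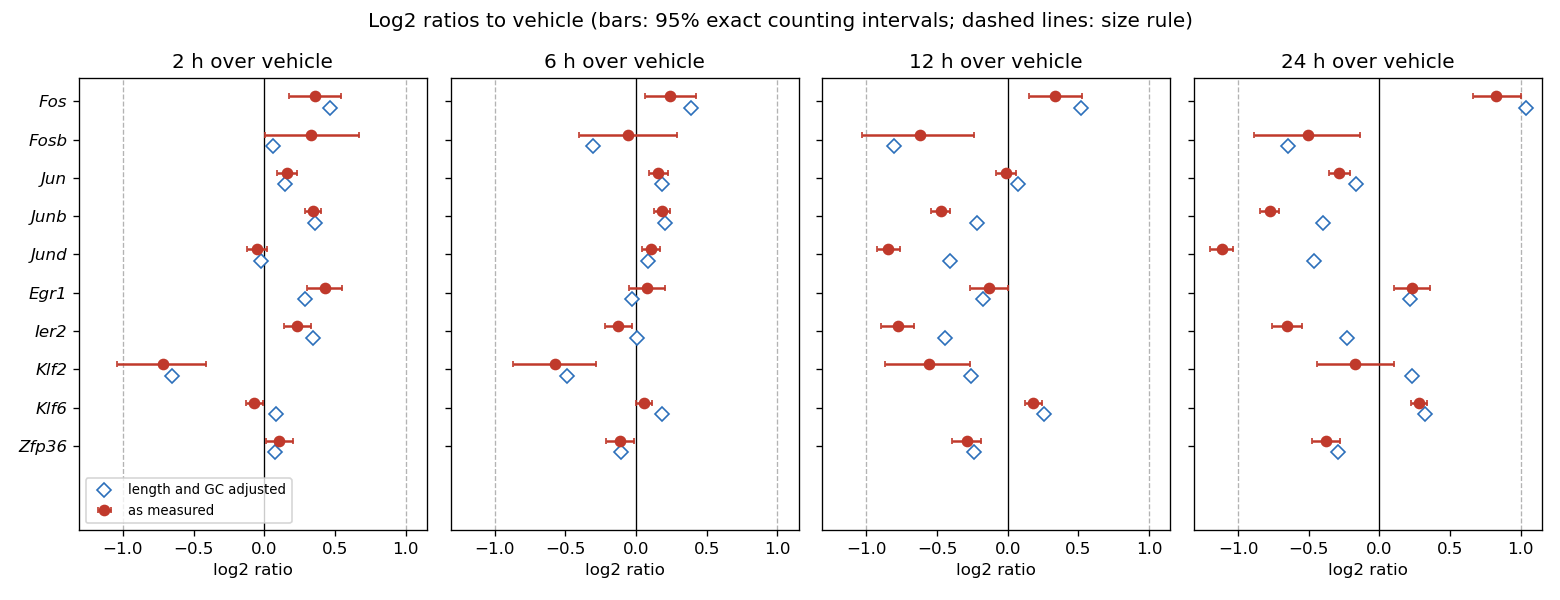
Log2 ratio to vehicle (horizontal axes) of each member at 2, 6, 12 and 24 h, as measured (red, with 95% exact counting intervals) and adjusted for exon length and GC content (open blue); dashed lines mark the size rule of 1. At 24 h Jund is at -1.12 as measured and -0.46 adjusted, and Fos at 0.83 as measured and 1.04 adjusted.

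Log2 ratios moved with GC content and with exon length. Among the members with a 24 h interval below vehicle, Jund transcripts have 67.1% GC, Junb 62.6%, Ier2 60.9%, Fosb 56.2%, Jun 55.5% and Zfp36 54.7%, and Klf2, whose 24 h interval included 0, has 61.6%. The members with a 24 h interval above vehicle have 55.8% (Egr1), 54.1% (Fos) and 45.0% (Klf6). The median was 50.1% over compared genes, of which 3 have a GC content above that of Jund. At 24 h over 2 h, the median log2 ratio of the top GC quintile minus that of the bottom quintile was -0.36. The median was -0.31 over the 244 compared genes with at least 60% GC. At 24 h over vehicle the GC quintile difference was -0.16. The median of the longest quintile minus that of the shortest was 0.65 at 24 h over vehicle and 0.15 at 24 h over 2 h. Of compared genes, 8.31% are shorter than Jund, 15.6% than Junb, 6.77% than Ier2 and 10.3% than Klf2. For the members above vehicle at 24 h the shares are 16.2% (Fos), 48.4% (Egr1) and 47.0% (Klf6). Adjusted for exon length and GC content, the log2 ratio at 24 h over 2 h was -0.76 for Junb, -0.42 for Jund and -0.58 for Ier2, and the ratio to vehicle at 24 h was -0.40, -0.46 and -0.23, so that each kept its direction and neither Junb nor Jund was called, beside 0.555% of genes called lower at 24 h over 2 h and 0.985% at 24 h over vehicle after the same adjustment. At the step 12 h over 6 h the adjusted values were -0.45 for Junb, -0.56 for Jund and -0.48 for Ier2, with 1.66%, 0.849% and 1.32% of genes lower. Fos instead stood at 1.04 against vehicle at 24 h after the adjustment and was then called higher, as were 1.96% of genes. With GC content alone Fos was at 0.87, without a call, and with length alone at 1.06, with a call.

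**Figure D4:**
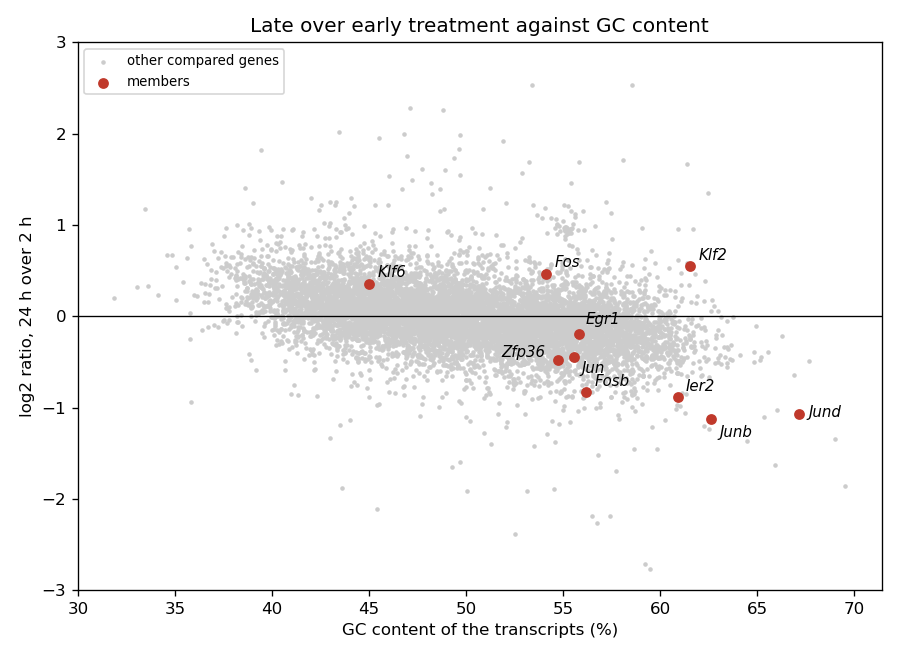
Log2 ratio at 24 h over 2 h (vertical axis, limited to 3 in size, which leaves out 7 genes) against GC content of the transcripts in percent (horizontal axis) for the compared genes (grey) and the 10 members (red). Jund, Junb and Ier2 lie at the GC-rich end with ratios of -1.07, -1.12 and -0.89.

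Compared per kilobase of exon, mean levels over the 5 libraries ran from Junb (53.9 CPM per kilobase) and Jund (47.1) through Klf6 (30.7), Jun (28.2), Ier2 (26.9), Zfp36 (12.9), Fos (6.95), Egr1 (6.46) and Klf2 (2.69) to Fosb (0.571). Ranges over the libraries overlapped between each neighbouring pair from Junb to Ier2, and between Fos and Egr1. Zfp36 (10.8 to 15.1), Klf2 (2.12 to 3.50) and Fosb (0.403 to 0.790) each had a range clear of both neighbours or of the only one. Of the 10 members 4, Jun, Junb, Jund and Ier2, have 1 exon in their longest coding transcript, as do 3.16% of compared genes, and Fos, Fosb and Klf6 have 4. The genes Jund, Klf2, Ier2 and Junb all lie on chromosome 8 (GRCm38), Jund at 70698949 to 70700616 and Junb at 84974484 to 84978718. At least 1 ATTTA, the core of the AU-rich element, occurs in the annotated 3′ UTR of 9 members, as in 70.9% of compared coding genes, with 7 in Klf6, 4 each in Fos and Jun, 3 in Zfp36 and 0 in Ier2.

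Some members have exons that overlap a gene on the opposite strand, and the library kit does not mark strand. For Jund, 52.6% of its exon bases overlap Gm11175, which had 6 to 14 counts, and for Junb 7.5% overlap Prdx2, which encodes a peroxiredoxin and had 240 to 271 CPM. The sources used here do not say how reads in such stretches were counted, so the levels of Jund and Junb are uncertain to that extent. Antisense genes also overlap 7.3% of the exon bases of Jun (Junos) and 3.6% of those of Zfp36 (Gm44710).

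The genes nearest to the members in the shape of their levels were found by the Euclidean distance between log2 CPM profiles, each centred on its own mean, over the 5 libraries, for the 3 members whose log2 level ranged over at least 1. Nearest to Junb were Cars, which encodes a cysteinyl-tRNA synthetase (distance 0.08; 108, 137, 120.2, 81.4 and 65.5 CPM in vehicle and at 2, 6, 12 and 24 h), Faap100 (0.14), of the Fanconi anaemia core complex, and Ccdc85b (0.17). Nearest to Jund were the histone variant gene H2ax (0.20), Mrps34 (0.24), of the mitochondrial ribosome, and Ndufab1 (0.24). Nearest to Ier2 were the linker histone gene H1f2 (0.17), the NF-kB subunit gene Relb (0.19) and Atf4 (0.20). The median distance over candidate genes was 0.98 from Junb, 1.15 from Jund and 0.92 from Ier2.

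The other genes of the pathway called against vehicle were Bhlhe40, Cebpd, Fosl2 and Tnrc6b. Of 169 further genes listed, 110 were compared. At 2, 6, 12 and 24 h over vehicle 0, 1, 1 and 2 of these were called higher and 0, 0, 1 and 1 lower. In either direction this was 2.73% of them at 24 h, beside 4.09% of all compared genes. The other AP-1 and bZIP factors (14 compared of 17) had a median log2 ratio to vehicle of 0.41 at 2 h and 0.20 at 24 h, and of 0.33 and 0.05 adjusted for length and GC content. Of these Fosl2, a Fos relative, was called at 6 h (1.04, with 12.9 against 6.25 CPM in vehicle), but not after adjustment for length and GC content. Its vehicle level was below 10 CPM, so Fosl2 was compared only through treated libraries, where it was higher. Atf3, a stress-induced repressor, had 47.2, 65.1, 47.5, 40.6 and 36.6 CPM in vehicle and at 2, 6, 12 and 24 h, and Batf3 had a log2 ratio of -0.72 at 24 h. Atf7 (0.94 at 12 h) and Bach1 (0.91 at 24 h) were not called.

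Of 22 compared among 39 other immediate early genes, Bhlhe40, a basic helix-loop-helix repressor, was called higher at 12 h (1.09) and 24 h (1.18; 128 against 56.5 CPM in vehicle). Cebpd, a C/EBP factor of inflammation, was called lower at 12 h (-1.08) and 24 h (-1.15; 8.62 against 19.1 CPM in vehicle). Both were still called at 24 h after adjustment. Myc, a transcription factor of cell growth, had a log2 ratio of -0.69 at 24 h without a call, and Per1, a clock gene that is also induced rapidly, had 0.69 at 2 h. Egr2 and Nr4a1, classical early genes, stayed at 1.01 to 1.58 CPM and 1.09 to 2.17 CPM, too low to be compared.

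Upstream, 0 of 23 MAP kinases and kinases above them and 0 of 14 SRF, ETS, CREB and MEF2 factors were called at any time over vehicle. Likewise 0 of 7 MAP kinase phosphatases and 0 of 6 other Krüppel-like factors were called. Over all compared genes 1.33%, 1.94%, 3.07% and 4.09% were called at 2, 6, 12 and 24 h. Median log2 ratios of these lists at 24 h, in the order given, were 0.17, 0.13, 0.32 and 0.14, beside -0.00 over all compared genes. Adjusted for length and GC content they were 0.09, -0.05, 0.25 and 0.14, so that the sign turned for the SRF, ETS, CREB and MEF2 factors. Map3k1, a kinase above JNK, had 0.81 at 24 h and Rps6ka5, a kinase that acts on CREB, 0.92. Mrtfb, an SRF cofactor, was at 0.98 at 6 h, and Srf itself at -0.49 at 24 h. Dusp1, a phosphatase that turns MAP kinases off, had 6.07 CPM in vehicle and 5.76, 7.54, 8.85 and 10.2 CPM at 2, 6, 12 and 24 h, with a log2 ratio of 0.74 at 24 h. Dusp1 reached 10 CPM only at 24 h, so it was compared only through the library where it was highest. Klf13 had 0.70 at 2 h.

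Downstream and beside Zfp36, 18 of 20 listed relatives and mRNA decay factors were compared. Tnrc6b, a partner of Argonaute proteins, was called higher at 24 h (1.01; 60.02 against 29.8 CPM in vehicle) but not after adjustment (0.39), and Cnot1, the scaffold of the deadenylase complex, was at 0.97. Of 16 mRNAs known to be bound by Zfp36 proteins, only Ccnd1 reached 10 CPM, with -0.24 at 24 h, and Tnf had 2.74 CPM at 24 h against 2.84 CPM in vehicle. Of 5 known Klf2 targets only Itgb7, an integrin chain, was compared, with 245 CPM at 24 h against 162 CPM in vehicle. Of 6 genes of ubiquitin ligases and adaptors that act on Fos or Jun proteins 0 were called, and Itch was the highest at 24 h (0.67). Over all compared genes 4.09% were called at 24 h over vehicle.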

How the data were processed

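Poly-A RNA of 5 MutuDC libraries was sequenced, made with a TruSeq kit that does not mark strand, per the labels' protocols. The authors deposited raw counts per gene, made with Trim Galore and HISAT2 on GRCm38, per the submitters' processing notes. The sources used here do not name the counting program or say whether replicates were pooled. Columns without a sample numbered 0. TMM factors from edgeR (0.977 to 1.05) scaled the library totals, and log2 CPM took a prior count of 2 (edgeR 4.0.16, DESeq2 1.42.0, R 4.3.3). At 10 CPM a gene had 328 to 427 counts. Intervals of the ratio of 2 counts are 95% exact (Clopper-Pearson), and those of a level are exact Poisson intervals. With 1 library per group no test between samples was possible. The code that makes the calls was checked on simulated counts, which says nothing of the spread between replicates. Exon positions, lengths, GC content and 3′ UTRs came from GENCODE M21 (GRCm38), which held 99.9% of the compared genes. The adjustment for length and GC content was a loess fit (span 0.5) over compared genes. The members and gene lists were chosen with earlier results of these data known. Named genes were all members, and from the pathway lists the called and up to 3 further compared genes with the largest ratios per list. Also named were 8 genes fixed by name (Atf3, Dusp1, Nr4a1, Fosl2, Myc, Batf3, Srf and Egr2) and the 3 nearest profiles. Called cDC1 marker, mitochondrial, nuclear non-coding and housekeeping genes were not named. Tnf, Per1 and the marker genes were named after their values were seen, for context. Alternatives covered scaling, filters, prior count, limits, mitochondrial genes, summed rows, and length and GC content, the last also singly and with the lower limit, added after the data were seen.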

Additional observations from a re-analysis of the deposited data

Results flagged for a closer look

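Junb stood above vehicle in the 2 early treated libraries and below it in the 2 late ones, each time with an interval that excluded 0. The log2 ratio to vehicle was 0.35 (2 h) and 0.19 (6 h) in the early libraries, and -0.47 (12 h) and -0.78 (24 h) in the late ones. Adjusted for length and GC content, the Junb values were 0.36, 0.20, -0.22 and -0.40 in the same order. This change of sign between time points was not tested, since each time point has 1 library. Over all compared genes, the top GC quintile minus the bottom was 0.22, 0.14, -0.05 and -0.16 at 2, 6, 12 and 24 h over vehicle. The part of GC content in the Junb values was not tested.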

How the results depend on the processing

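With 1 library per time point no spread between replicates exists, and none of the differences has a replicate check. No paired analysis was possible because each group has a single library. No called log2 ratio of a member changed sign, but 6 uncalled ones did with both adjustments: Klf6 at 2 h (0.08, against -0.07), Egr1 at 6 h (-0.02, against 0.08), Ier2 at 6 h (0.01, against -0.12), Jun at 12 h (0.07, against -0.01) and Klf2 at 24 h (0.23, against -0.17) over vehicle, and Jun at 6 h over 2 h (0.03, against -0.00). Total-count scaling shifted the median log2 ratio of all compared genes at 24 h over vehicle by 0.10. It left 1 member, Junb, called lower at 24 h over 2 h, against 2 with TMM scaling, beside 50 of 8866 genes. Adjusted for length and GC content together, 0 members were called lower at 24 h over vehicle and 0 at 24 h over 2 h, and 1, Fos, was called higher at 24 h over vehicle. Adjusted for GC content alone, 0 were called lower in both comparisons, beside 94 of 8835 genes at 24 h over vehicle and 49 at 24 h over 2 h. Adjusted for length alone, 0 were called lower and 1 higher at 24 h over vehicle, beside 89 lower and 180 higher of 8835 genes. At 24 h over 2 h with length alone, Junb (-1.07) and Jund (-1.02) still met the size rule, beside 60 of 8835 genes called lower. With the limit at 0.5, members called lower were 2 at 12 h over vehicle, 3 at 24 h over vehicle and 3 at 12 h over 6 h, and 1 was higher at 24 h over vehicle. With the limit at 0.5 and both adjustments, members called higher were 1 at 12 h over vehicle and 1 at 24 h over vehicle. The number was also 1 at 24 h over 12 h and 1 at 24 h over 2 h. Of 8835 genes, 874, 963, 71 and 376 were called higher in these comparisons, in the same order. Members called lower were 0 at 24 h over vehicle, 1 at 12 h over 6 h and 2 at 24 h over 2 h. Beside them 881, 104 and 444 of the 8835 genes were called lower. Only 3 compared genes have a higher GC content than Jund, where the adjustment rests on few genes. The cause of these differences was not tested. Fosb and Klf2 were kept from a call by the filter of 10 CPM, and with genes of at least 1 CPM or no filter they were not called either.

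Of 80 log2 ratios of members, 29 left their counting interval with both adjustments, 11 with total counts and 0 with DESeq2 size factors. Of the other pathway genes, those called higher were 2 with DESeq2 size factors at 12 h over vehicle, and 2, 2 and 5 at 6, 12 and 24 h with total counts. The numbers called higher were 0 at 6 h and 1 at 24 h over vehicle with both adjustments, 1 at 24 h with GC content alone, and 1 higher and 2 lower at 24 h with length alone. With genes of at least 1 CPM, 1, 3 and 4 were called lower at 2, 12 and 24 h over vehicle, 2 higher at 12 h, and 2 higher and 2 lower at 24 h over 2 h. Without a filter, 3, 4, 7 and 6 were called higher and 4, 1, 4 and 5 lower at 2, 6, 12 and 24 h over vehicle, and 3 higher and 4 lower at 24 h over 2 h. Over all compared genes, 80 were called higher and 38 lower at 2 h over vehicle, against 45 and 17 with both adjustments, 139 and 33 at 6 h, against 76 and 22, and 206 and 66 at 12 h, against 136 and 45. At 24 h over vehicle 253 were called higher and 109 lower, and 362 and 75 with total counts. Genes of at least 1 CPM gave 215 higher and 183 lower calls at 2 h over vehicle, and no filter gave 540 and 684.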
